A study of Danio rerio with 2 samples.

Results

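The 9 genes described here move cholesterol and lipoproteins. They are the apolipoprotein genes apoeb, apoc1 and apobb.1, the lysosomal genes npc2 and lipa, the efflux transporter genes abca1a, abca1b and abcg1, and the sterol receptor gene nr1h3. They were chosen by name, with earlier results of these data known. Counts of members, and of the lists of related genes below, are therefore a description beside the shares over all genes. Rows were found for 8 of the 9 among the 22342 genes in the tables, with apobb.1 found by its identifier, ENSDARG00000022767, and nr1h3 is not analysed here.

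Cholesterol enters macrophages in lipoproteins and in engulfed cells. In the lysosome, the acid lipase encoded by lipa frees it from its esters, and the carrier NPC2 hands it to the membrane protein NPC1, which passes it on to the rest of the cell. ABCA1 and ABCG1 then export it to apolipoproteins and particles outside the cell, and liver X receptors, of which nr1h3 encodes one, raise the transcription of these exporters and of apolipoprotein E in mammals.

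The cells were dissociated from the tails of zebrafish at 3 days after fertilization. The embryos carried mpeg1:EGFP, which labels macrophages, and runx1+23:mCherry, which labels hematopoietic stem and progenitor cells (HSPCs), and the study asked how macrophages that carry HSPC material differ from those that do not. On each of 2 plates, wells 1 to 192 received EGFP+mCherry+ cells (mCherry+ below) and wells 193 to 384 EGFP+mCherry- cells (mCherry- below), with 1 cell per well. All groups thus shared genotype, age and the EGFP gate. The gate does not separate cells that took up mCherry from cells that made it, and neither the number of embryos nor whether the plates came from separate clutches or sorts is given in the sources used here. P-values therefore rest on the spread between these 2 plates, which may be technical. That spread was mostly or wholly shared across genes, so a gene's own spread had little or no weight.

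Messenger RNA was counted as unique molecular identifiers (UMIs) by SORT-seq, in which each well carries its own barcode. The plates use the same 384 well labels by design, and no doublet caller was run. After wells under 500 UMIs or 200 genes were set aside, 143 mCherry+ and 151 mCherry- wells remained on plate 1, and 123 mCherry+ and 117 mCherry- wells on plate 2. The labels call all cells macrophages, but 214 of the 534 kept wells fell in macrophage-like clusters (104 mCherry+ and 110 mCherry-). Another 120 wells were neutrophil-like (18 mCherry+ and 102 mCherry-), 83 were progenitor-like (60 mCherry+ and 23 mCherry-), 13 were muscle-like, 8 were erythroid-like and 96 took no name. The gates were therefore compared within macrophage-like wells first and over all kept wells second, on UMIs summed per gate and plate. The summed depth of kept wells was 983834 to 1952888 UMIs per gate and plate. Levels are given as CPM, the UMIs of a gene scaled to a total of 1000000 UMIs in the same well or sum.

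Within macrophage-like wells, npc2 and abca1a were higher in mCherry+ than in mCherry- wells, and on each plate. The edgeR quasi-likelihood test called these 2 of the 6 members with enough UMIs to be tested, where 4.0% of the 5301 genes tested were called (117 or 2.21% higher and 95 or 1.79% lower in mCherry+ wells). An unadjusted p under 0.05 was reached by 4 of the 6 members and by 17.2% of all genes tested. The median log2 fold change of the 6 members was 1.49, beside -0.03 over all genes tested, and all 6 values were above 0. Both mCherry+ sums lay above both mCherry- sums for 4 of the 6 members (npc2, abca1a, apoc1 and apoeb), as they did for 24.2% of all genes tested. For apoeb the plate 1 sums were nearly level, and its plate 1 log2 fold change after scaling was -0.07. By that measure 3 of the 6 members were above 0 on both plates.

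**Figure D1:**
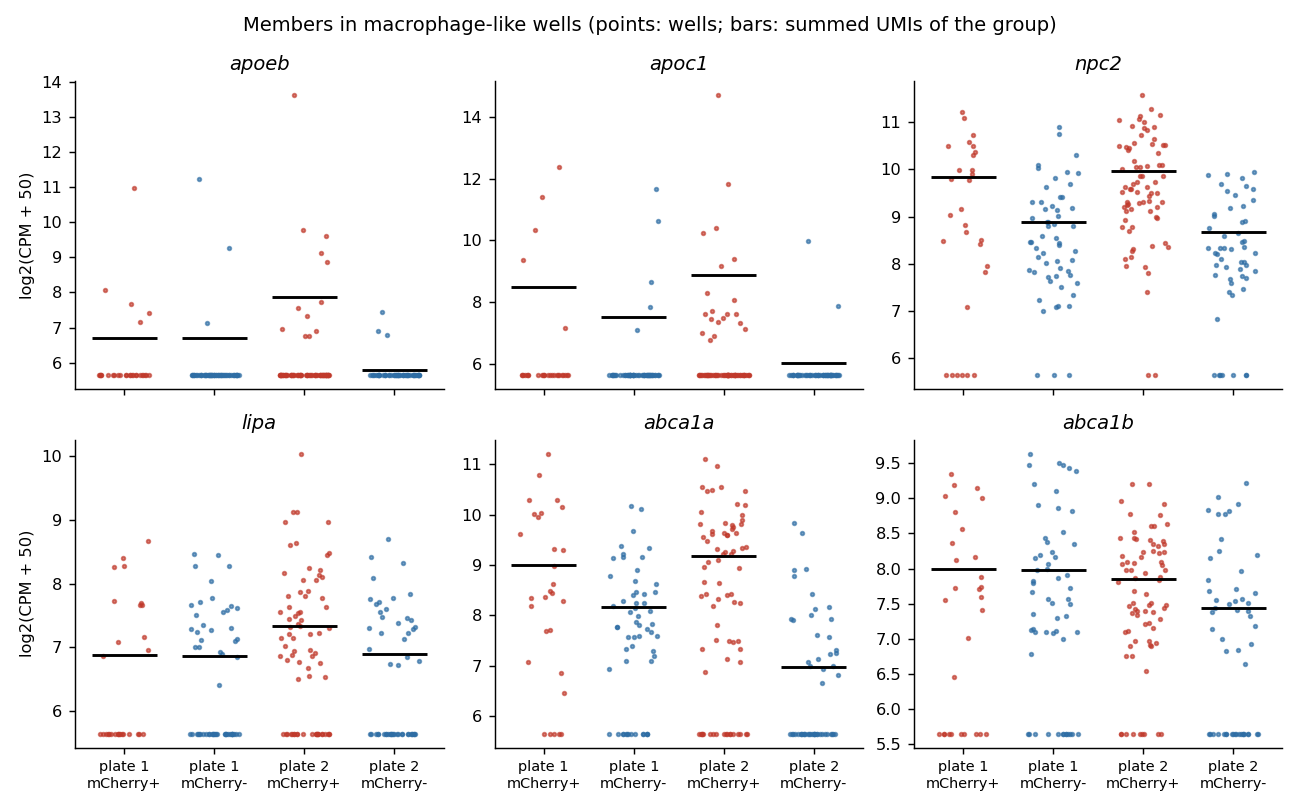
Level of 6 members in each macrophage-like well, on the log2(CPM + 50) scale, by plate and gate. Points are wells, bars are the CPM of the summed UMIs, and the lowest row of points holds wells without a UMI of the gene. For npc2 and abca1a the cloud of mCherry+ points sits higher on both plates, whereas for apoeb and apoc1 a few wells stand far above a floor of wells at 0.

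The lysosomal carrier npc2 (ENSDARG00000090912) was higher in mCherry+ wells by like amounts on both plates. Its summed level was 870 CPM on plate 1 and 945 CPM on plate 2 in mCherry+ macrophage-like wells, against 423 and 358 CPM in mCherry- macrophage-like wells. Single mCherry+ wells ranged from 0 to 2320 CPM on plate 1 (median 472) and from 0 to 3001 CPM on plate 2 (median 720), and single mCherry- wells from 0 to 1848 CPM (median 303) and from 0 to 937 CPM (median 251). The gates overlapped well by well, but the mCherry+ sum and the mCherry+ median were the higher ones on both plates.

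The fitted log2 fold change of npc2 was 1.18 ± 0.23 (SE, adjusted p = 0.0252), with 0.95 on plate 1 and 1.39 on plate 2. Many wells contributed, as 50% of its mCherry+ macrophage-like UMIs lay in 22 of 104 wells and 50% of its mCherry- UMIs in 20 of 110 wells. A UMI was found in 96 of 104 mCherry+ wells (92.3%, exact 95% interval 85.4 to 96.6%) and in 100 of 110 mCherry- wells (90.9%, 83.9 to 95.6%), beside 55.8% of neutrophil-like wells. Median depth was 10743 and 12384 UMIs per mCherry+ well on plates 1 and 2, against 9890 and 8517 UMIs per mCherry- well. After wells were thinned to 2000 UMIs the shares were 73.3% of 101 mCherry+ and 48.6% of 109 mCherry- wells, with 3 and 1 shallower wells left out. These and all later intervals cover counting error only. A second identifier, ENSDARG00000096979, bears the same symbol and is not analysed here. Whether its reads were counted under the first is not known.

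The acid lipase gene lipa (ENSDARG00000018529) did not pass the test. It had 67.9 CPM on plate 1 and 111 CPM on plate 2 in mCherry+ macrophage-like wells, against 66.6 and 69.6 CPM in mCherry- wells. Its log2 fold change was 0.36 ± 0.34 (SE, edgeR adjusted p = 0.687), and the plates differed in sign (-0.05 and 0.65). The median mCherry+ well had 0 CPM on plate 1 and 91.6 CPM on plate 2, and the median mCherry- well 0 CPM on both. The depth was low, with 195 UMIs over all macrophage-like wells.

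The exporter gene abca1a (ENSDARG00000074635, listed as ABCA1) was higher in mCherry+ macrophage-like wells, with plates of unequal size. Its summed level was 461 CPM on plate 1 and 532 CPM on plate 2 in mCherry+ wells, against 238 and 75.6 CPM in mCherry- wells. Single mCherry+ wells ranged up to 2329 CPM on plate 1 (median 298) and 2149 CPM on plate 2 (median 357), and single mCherry- wells up to 1105 CPM (median 169) and 859 CPM (median 0). The low plate 2 mCherry- sum sets the plates apart: a UMI was found there in 24 of 53 wells, against 43 of 57 mCherry- wells on plate 1. After thinning to 2000 UMIs per well, abca1a was found in 55.4% of mCherry+ and 26.6% of mCherry- wells, beside 5.31% of neutrophil-like wells.

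The fitted log2 fold change of abca1a was 1.79 ± 0.42 (SE, edgeR adjusted p = 0.0498), with 0.86 on plate 1 and 2.76 on plate 2. This call sat at the threshold of 0.05 and was kept in 6 of 14 alternative analyses, with adjusted p from 1.36e-05 to 0.835. That of npc2 was kept in 7 of 14, with adjusted p from 0.000189 to 0.965, and both log2 fold changes stayed above 0 in each of the 14. The calls ended when the plate was not used as a block (npc2 1.16, adjusted p = 0.0708, and abca1a 1.58, adjusted p = 0.169) and when the well richest in UMIs of the gene was left out of each sum (npc2 1.24, adjusted p = 0.137, and abca1a 1.81, adjusted p = 0.232). Few genes of any kind were called in these 2 settings, 70 of 5301 tested in the former and 1 of 4671 in the latter.

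Its paralog abca1b (ENSDARG00000079009) did not pass the test, with 204 and 182 CPM on plates 1 and 2 in mCherry+ macrophage-like wells, against 203 and 123 CPM in mCherry- wells. The log2 fold change was 0.24 ± 0.29 (SE, edgeR adjusted p = 0.766), with -0.08 on plate 1 and 0.54 on plate 2. Single wells reached 599 and 543 CPM in mCherry+ wells (medians 144 and 154), against 748 and 544 CPM in mCherry- wells (medians 139 and 94.4), so the gates overlapped throughout. The difference between the paralogs was not itself tested.

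The exporter gene abcg1 (ENSDARG00000063475) was at the limit of detection. Macrophage-like wells held 2 of its UMIs in all, each in a plate 2 mCherry+ well, and no mCherry- well held any (0 of 110, an exact upper bound of 3.30% on wells with a UMI, which does not bound the share of cells that express the gene). All 22 UMIs of abcg1 over both plates lay in 17 kept wells, with at most 3 in a well, so that no gate or class could be compared.

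**Figure D2:**
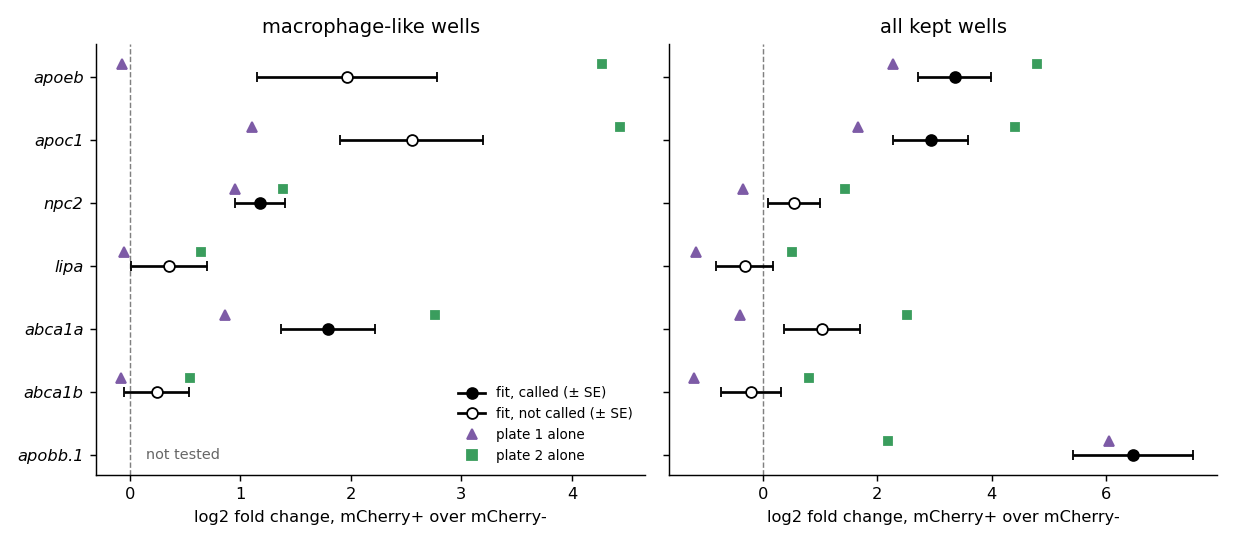
Log2 fold change of each member, mCherry+ over mCherry-, in macrophage-like wells (left) and in all kept wells (right). Circles are the fitted values with their SE, filled where edgeR's adjusted p was under 0.05, and triangles and squares are plates 1 and 2 alone, which carry no test. npc2 and abca1a are filled on the left, and apoeb, apoc1 and apobb.1 on the right.

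The apolipoprotein genes had much of their signal in single wells. The gene apoc1 (ENSDARG00000092170), which encodes a small apolipoprotein exchanged between lipoprotein particles, had 308 CPM on plate 1 and 419 CPM on plate 2 in mCherry+ macrophage-like wells, against 134 and 15.9 CPM in mCherry- wells. The median well had 0 CPM in every gate and plate, and the highest wells had 5204.5 and 26516 CPM in mCherry+ wells, against 3182 and 962 CPM in mCherry- wells. A UMI was found in 25 of 104 mCherry+ wells (24.0%, exact 95% interval 16.2 to 33.4%) and in 7 of 110 mCherry- wells (6.36%, 2.60 to 12.7%), beside 6.67% of neutrophil-like wells. After thinning to 2000 UMIs per well these shares were 10.9% of mCherry+, 3.67% of mCherry- and 1.77% of neutrophil-like wells.

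Of the 466 apoc1 UMIs in mCherry+ macrophage-like wells, 273 came from plate 2 well 129, and of the 88.5 UMIs in mCherry- wells, 62.5 came from plate 1 well 375. The log2 fold change was 2.55 ± 0.65 (SE, edgeR adjusted p = 0.0659), with 1.11 on plate 1 and 4.43 on plate 2, and was not called. It was called in 6 of 12 alternatives, with adjusted p from 5e-07 to 0.514, among them thinning (2.90, adjusted p = 0.0336), wells of at least 2000 UMIs, no filter on low counts and both other clusterings. Without plate 2 well 129, a choice made after the data had been seen, it was 1.78 ± 0.41 with an adjusted p of 0.0306.

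The gene apoeb (ENSDARG00000040295) encodes a fish apolipoprotein E, a ligand of lipoprotein receptors. It had 53.6 CPM on plate 1 and 182 CPM on plate 2 in mCherry+ macrophage-like wells, against 53.3 and 5.97 CPM in mCherry- wells. The median well was again at 0, and the highest wells had 1969 and 12535 CPM in mCherry+ wells, against 2356 and 123 CPM in mCherry- wells. The gates were level on plate 1 and far apart on plate 2, where 129 of 165 mCherry+ UMIs came from well 129 and the mCherry- wells held 3 UMIs in all. The plate 2 ratio was 30.5, with a counting interval of 10.3 to 149. A UMI was found in 17 of 104 mCherry+ wells (16.3%) and 6 of 110 mCherry- wells (5.45%), and after thinning in 6.93% and 1.83%, beside 1.77% of neutrophil-like wells. Over both plates the log2 fold change was 1.97 ± 0.82 (SE, edgeR adjusted p = 0.252), with -0.07 on plate 1 and 4.27 on plate 2. Without plate 2 well 129 it was 0.92 ± 0.57 (adjusted p = 0.458).

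Well 129 held 10290 UMIs, of which 273 were apoc1 and 129 were apoeb. It had UMIs of 15 of the 22 macrophage markers measured, at 11298 CPM. Plate 2 mCherry+ macrophage-like wells had a median of 18874 CPM of these markers and a lowest well of 9717 CPM. The well also had UMIs of 4 of the 9 neutrophil markers, at 3017 CPM, beside a median of 1305 and a highest well of 7436 CPM in that group. It had none of the 10 yolk or liver genes measured, which mark tissues that make lipoprotein. In macrophage-like wells 10 of 17 mCherry+ wells with apoeb also held apoc1, as did 2 of 6 such mCherry- wells. Over the 214 macrophage-like wells, the Pearson correlation of the 2 genes in log2(CPM + 50), centred within gate and plate, was 0.66, the highest of the 28 pairs of members and a value that 12 wells with both genes carried.

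The gene apobb.1 encodes an apolipoprotein B, the core protein of the particles made by yolk, intestine and liver. Plate 1 mCherry+ well 54 held 175 of its UMIs, 88.4% of those in all kept wells. Plate 2 mCherry+ well 37, macrophage-like, held 10.01 more. Every other kept well had 3 UMIs or fewer, and macrophage-like wells other than well 37 had none, so apobb.1 could not be tested in that class.

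Well 54 was neutrophil-like by cluster, with 1346 UMIs of lyz and 196 of npsn, both neutrophil genes. It also held 2511 UMIs of the 10 yolk or liver genes, 89.1% of their UMIs in all kept wells, among them 984 of apoa1a and 1289 of apoa2, the main proteins of high-density lipoprotein. The same well carried 241 apoc1 UMIs (25.2% of the gene's total) and 99.2 apoeb UMIs (17.8%). It had 4 UMIs of macrophage markers. With this well, the 15 neutrophil-like mCherry+ wells of plate 1 summed to 547 CPM of apoeb and 1391 CPM of apoc1, against 5.77 CPM of each in the 62 mCherry- wells of that plate. On plate 2 the 3 neutrophil-like mCherry+ wells held neither gene.

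The members thus fell apart by how many wells carried them. In macrophage-like wells, 50% of the UMIs lay in 1 well for apoeb and 2 wells for apoc1, and in 25 wells for abca1a, 33 for lipa, 35 for npc2 and 39 for abca1b. All macrophage-like apobb.1 UMIs came from 1 well.

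**Figure D3:**
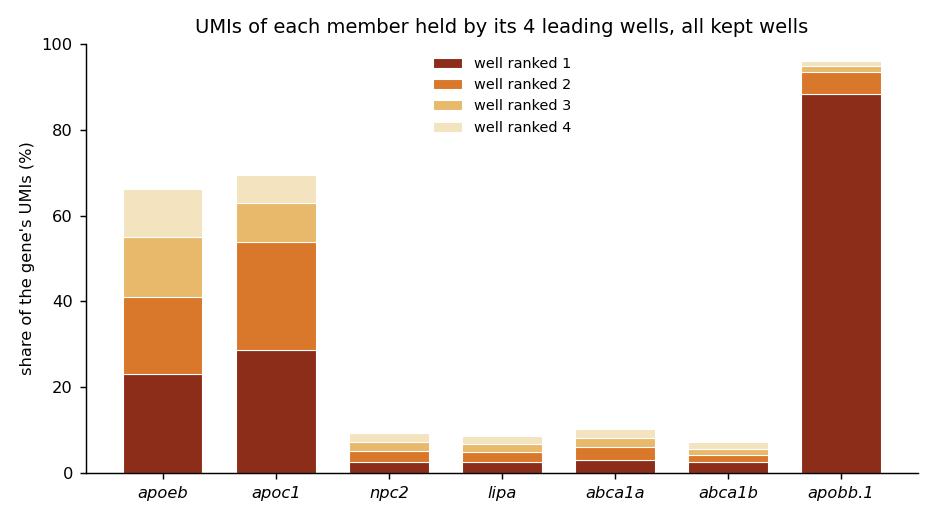
Share of the UMIs of each gene in all kept wells that its 4 leading wells held, stacked from the leading well up. The leading well held 88.4% for apobb.1, 28.6% for apoc1 and 23.1% for apoeb, and at most 3.06% for npc2, lipa, abca1a and abca1b.

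Over all kept wells, where the gates also differ in cell classes, 3 of the 7 members tested were called, all higher in mCherry+ wells, beside 4.75% of the 9904 genes tested (240 or 2.42% higher and 230 or 2.32% lower). These were the 3 apolipoprotein genes. Of them, apobb.1 had enough UMIs to be tested only through its mCherry+ sums. Its call could only come out higher, so it adds nothing to the count beside all genes. apoeb had 165 and 106 CPM on plates 1 and 2 in mCherry+ wells, against 27.7 and 3.05 CPM in mCherry- wells, a log2 fold change of 3.35 ± 0.64 (SE, edgeR adjusted p = 0.0208). apoc1 had 235 and 216 CPM in mCherry+ wells, against 61.4 and 10.2 CPM in mCherry- wells, a log2 fold change of 2.93 ± 0.65 (adjusted p = 0.0359). For both genes the mCherry+ sums lay above the mCherry- sums on each plate, as for apobb.1, whereas 23.6% of all genes tested had both mCherry+ sums above both mCherry- sums.

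The apobb.1 call (edgeR adjusted p = 0.00956) set 197 mCherry+ UMIs against 1 mCherry- UMI, a ratio of 121 with a counting interval of 21.6 to 4822. Without plate 1 well 54 it set 22.0 UMIs against 1, too few to be tested, and the ratio was 13.6 (2.2 to 563). Without that well, a choice made after the data had been seen, apoeb kept its call at 3.02 ± 0.70 (adjusted p = 0.0413) and apoc1 lost it at 2.32 ± 0.84 (adjusted p = 0.168). None of the 7 members was called by edgeR when the 13 muscle-like wells were left out, or when the plate was not used as a block, with 3 at an unadjusted p under 0.05 in each case.

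The other members did not pass the test over all kept wells, and each had opposite signs on the plates. The log2 fold changes on plates 1 and 2 were -0.35 and 1.44 for npc2, -0.41 and 2.51 for abca1a, -1.17 and 0.51 for lipa, and -1.21 and 0.81 for abca1b. The shares of the classes differed as well. By wells, 29 of 143 kept mCherry+ wells on plate 1 were macrophage-like, as were 75 of 123 on plate 2. The mCherry- shares were 57 of 151 and 53 of 117 kept wells. By UMIs, on which the sums rest, macrophage-like wells held 279955 of 1873928 in mCherry+ and 601023 of 1376066 in mCherry- wells on plate 1. On plate 2 they held 906949 of 1952888 and 502815 of 983834. The plate 2 share was thus higher in mCherry+ by wells but lower by UMIs. The part of these shares in the signs was not tested.

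By class, npc2, lipa, abca1a and abca1b had most of their UMIs in macrophage-like wells, which held 37% of all UMIs. These wells held 74.2% of the UMIs of npc2, 72.8% of lipa, 75.6% of abca1a and 75.7% of abca1b. By contrast they held 38.6% of the UMIs of apoeb, 58.1% of apoc1 and 5.06% of apobb.1, and 2 of the 22 UMIs of abcg1 (9.09%). In progenitor-like wells npc2 had 44.7 and 16.8 CPM on plates 1 and 2 in mCherry+ wells, against 67.5 and 111 CPM in mCherry- wells. The progenitor-like name rested on 3 of 11 markers raised, with 5 of 19 proliferating markers also raised. It went to 55 wells at a clustering resolution of 0.5. No cluster took it when the members and their pathway genes were left out of the clustering. Because clusters were built on the same genes, these class levels are a description.

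Detection was also set beside that in neutrophil-like wells, which are 1 of several other classes and do not stand for all other wells. Before thinning, apoeb was found in 15 of 70 unnamed and 2 of 18 neutrophil-like mCherry+ wells, beside 17 of 104 macrophage-like mCherry+ wells. A UMI of npc2 was found in 91.6% of macrophage-like wells (exact 95% interval 87.0 to 94.9%) and in 55.8% of neutrophil-like wells (46.5 to 64.9%), at median depths of 8517 to 12384 and 8371 to 12321 UMIs per well across gates and plates. After thinning to 2000 UMIs per well the shares were 60.5% and 23.0% for npc2, 40.5% and 5.31% for abca1a, 25.7% and 2.65% for abca1b, and 14.8% and 2.65% for lipa, in macrophage-like and neutrophil-like wells in that order. For apoeb they were 4.29% (1.98 to 7.98%) and 1.77% (0.215 to 6.25%), and for apoc1 7.14% (4.05 to 11.5%) and 1.77% (0.215 to 6.25%), so the intervals of both apolipoprotein genes overlapped.

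**Figure D4:**
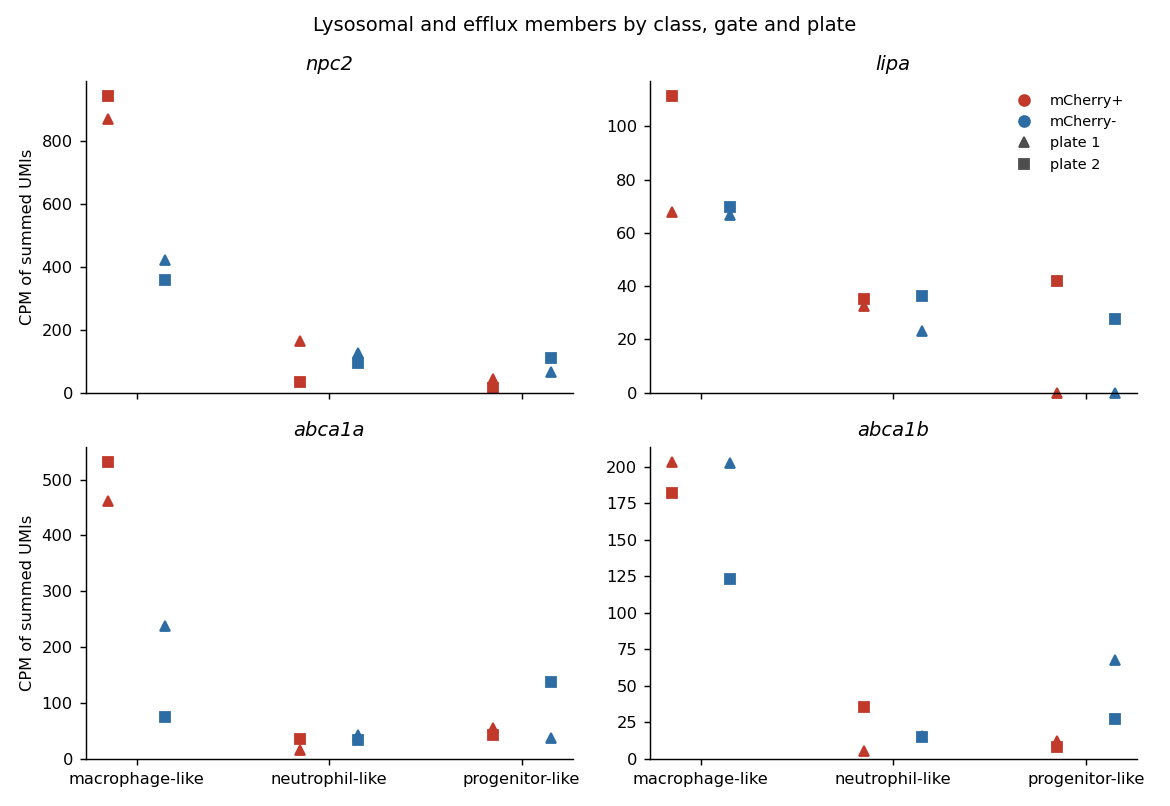
CPM of the summed UMIs of npc2, lipa, abca1a and abca1b in macrophage-like, neutrophil-like and progenitor-like wells. Red marks are mCherry+ and blue marks mCherry- sums, with triangles for plate 1 and squares for plate 2. Among the classes shown, macrophage-like sums are the highest for npc2 in both gates, at 870 and 945 CPM in mCherry+ wells and 423 and 358 CPM in mCherry- wells.

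A test of the difference between classes (macrophage-like minus neutrophil-like gate difference) called 2 of 6 members tested, apoeb at -4.33 ± 1.01 (SE, edgeR adjusted p = 0.00519) and apoc1 at -4.55 ± 0.89 (adjusted p = 0.000178), where 0.892% of 5606 genes were called, 0.678% above 0 and 0.214% below 0. An unadjusted p under 0.05 was reached by 4 of the 6 members and 9.76% of the genes. Without plate 1 well 54 none of the 6 was called by edgeR, with 2 at an unadjusted p under 0.05. The apoeb value was then 2.04 ± 1.81 (adjusted p = 0.803) and that of apoc1 -0.73 ± 0.94 (adjusted p = 0.896). For abca1a the difference between classes was 3.06 ± 0.88 (adjusted p = 0.0535) and for npc2 1.39 ± 0.64 (adjusted p = 0.425), against a median of 0.30 over all genes tested. The abca1a value passed the threshold in 2 of 4 alternatives, at 3.10 in wells of at least 2000 UMIs (adjusted p = 0.0396) and at 4.38 without the largest well of each sum (adjusted p = 0.0461). It did not pass with no filter on low counts (adjusted p = 0.491) or without well 54 (adjusted p = 0.0608). The npc2 value passed in none of the 4. For abca1a the neutrophil-like mCherry+ side was near the floor. Of its 15 wells on plate 1, only wells 69 and 103 held abca1a, at 106 and 72.3 CPM. Of its 3 wells on plate 2, only well 88 did, at 123 CPM. Leaving out the richest well thus emptied that plate 2 sum of abca1a, and the 4.38 cannot be read as a larger difference.

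The macrophage-like wells were not uniform, and their clusters were unevenly split between the gates. When wells were clustered again without the members and their pathway genes, 213 of the 214 macrophage-like wells kept that name and fell in 3 clusters. Cluster 3, led by MFAP4, the iron exporter gene SLC40A1 and c1ql1, held 60 mCherry+ and 5 mCherry- wells. Cluster 1 held 35 mCherry+ and 52 mCherry- wells, and cluster 5 held 8 mCherry+ and 53 mCherry- wells, all of them on plate 1.

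With both plates pooled, the levels of npc2 and abca1a differed between these clusters as well as between the gates. Of the mCherry- wells of cluster 1, 50 were on plate 2 and 2 on plate 1, whereas cluster 5 lay on plate 1 alone. In mCherry- wells a difference between clusters 1 and 5 thus cannot be told apart from one between the plates. The level of npc2 was 1091 CPM in mCherry+ and 628 CPM in mCherry- wells of cluster 3, 751 and 366 CPM in cluster 1, and 262 and 403 CPM in cluster 5. That of abca1a was 680 CPM in mCherry+ and 485 CPM in mCherry- wells of cluster 3, 287 and 67.6 CPM in cluster 1, and 201 and 230 CPM in cluster 5. With both plates pooled, cluster 3 was highest for both genes in each gate, and mCherry+ wells were higher in clusters 3 and 1 but not in cluster 5. The ranking of npc2 did not hold on plate 1 alone. There npc2 was higher in cluster 1 than in cluster 3 in each gate, on 5 mCherry+ and 2 mCherry- wells of cluster 1. On plate 1 alone, abca1a in cluster 1 stood at 127 CPM in 5 mCherry+ wells, against 159 CPM in 2 mCherry- wells. In cluster 3 the plate 1 gates were nearly level for abca1a. The mCherry- value there came from well 276 alone (1054 CPM), as well 238 had 0 CPM.

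With plate and cluster both as blocks, a fit added after the data had been seen, the log2 fold changes were 0.53 ± 0.30 for npc2 (edgeR adjusted p = 0.589) and 0.78 ± 0.38 for abca1a (adjusted p = 0.529). Neither gene was called, nor was any of the 1416 genes tested, with 134 at an unadjusted p under 0.05. Within cluster 1 alone they were 0.83 ± 0.46 and 1.63 ± 0.83, and within cluster 3 alone 0.86 ± 0.36 and 0.56 ± 0.45, with none called. The mCherry- sums of cluster 3 rested on 2 wells on plate 1 and 3 wells on plate 2, so a smaller difference and a lack of wells cannot be told apart.

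**Figure D5:**
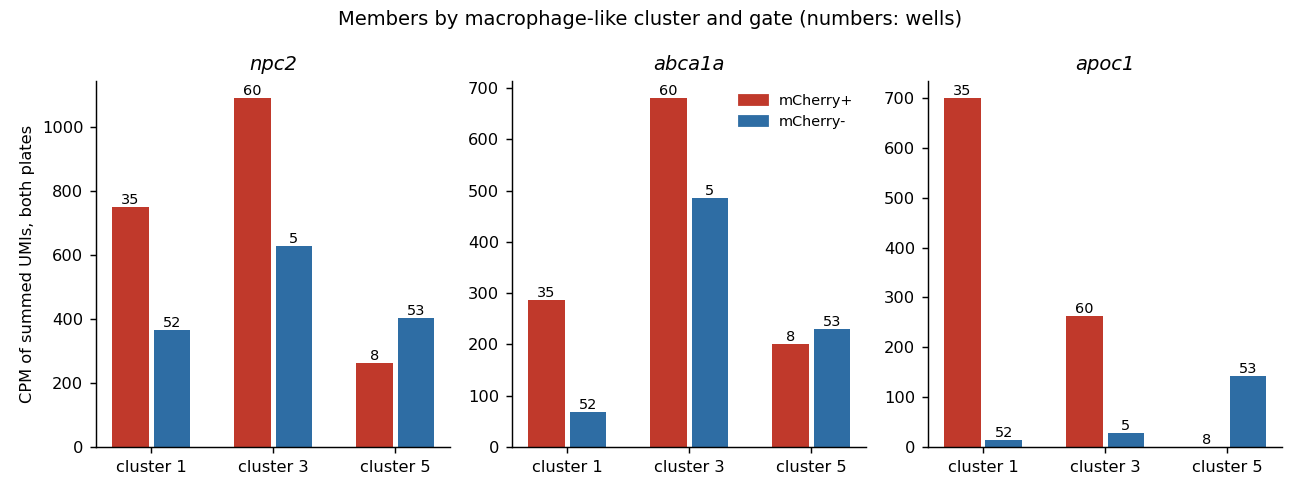
CPM of the summed UMIs of npc2, abca1a and apoc1 over both plates in the 3 macrophage-like clusters found without the members and their pathway genes. Red bars are mCherry+ and blue bars mCherry- wells, and the numbers above the bars are wells. Most mCherry+ wells (60) lie in cluster 3, where npc2 reached 1091 CPM and abca1a 680 CPM, and the tall apoc1 bar of cluster 1 (699 CPM) holds plate 2 well 129.

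The sums of several marker lists also differed between the gates in the same direction on both plates. In macrophage-like wells, the 22 macrophage markers summed to 17018 and 19379 CPM on plates 1 and 2 in mCherry+ wells, against 13260 and 14061 CPM in mCherry- wells, with 0 to 3 of them at 0. The 9 neutrophil markers measured summed to 1746 and 1720 CPM in mCherry+ wells, against 4613 and 3913 CPM in mCherry- wells, with 1 or 2 of the 9 at 0 in each sum. The 10 epithelial markers summed to 1256 and 1753 CPM in mCherry+ wells, against 786 and 762 CPM in mCherry- wells, with 0 to 4 of them at 0. The 10 yolk or liver genes summed to 78.6 and 86.2 CPM in mCherry+ wells, against 44.9 and 7.96 CPM in mCherry- wells, with 4 to 7 of them at 0, and 60.2 of the 78.2 UMIs behind the plate 2 mCherry+ value lay in well 37. The 3 metaphocyte markers summed to 35.7 and 48.5 CPM in mCherry+ wells, against 163 and 115 CPM in mCherry- wells, with 0 or 1 of the 3 at 0. The fibroblast markers summed to 293 and 559 CPM in mCherry+ wells, against 230 and 300.4 CPM in mCherry- wells. The highest plate 2 mCherry+ well had 19385 CPM of them, beside medians of 298 CPM in mCherry+ and 213 CPM in mCherry- wells. The muscle markers summed to 1715 and 3523 CPM, against 1250 and 3419 CPM, and the neural markers to 122 and 24.3 CPM, against 29.9 and 23.9 CPM. For muscle markers the plate 2 medians went the other way, at 3197 CPM in mCherry+ and 3577 CPM in mCherry- wells. For neural markers the plate 2 sums were nearly level, and the median well had 0 CPM in every gate and plate. The plates went opposite ways for the 11 progenitor markers, which summed to 39.3 and 73.9 CPM in mCherry+ wells and 54.9 and 47.7 CPM in mCherry- wells, with 2 to 6 of them at 0. They also did so for the proliferating, erythroid, thrombocyte and endothelial lists. The part of these levels in the gate differences was not tested.

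Among the wider pathway, genes of lysosomal lipid handling included 3 that were called of 17 tested in macrophage-like wells, all higher in mCherry+ wells, beside 2.21% of all genes tested, and 14 of the 17 log2 fold changes were above 0 (median 0.61). TPP1, a lysosomal peptidase, had 518 and 635 CPM in mCherry+ wells, against 215 and 263 CPM in mCherry- wells (log2 fold change 1.23 ± 0.24 SE, edgeR adjusted p = 0.0261). NPC1, which receives cholesterol from NPC2, had 300.2 and 269 CPM in mCherry+ wells, against 125 and 117 CPM in mCherry- wells (1.19 ± 0.27, adjusted p = 0.0448). PSAP, the precursor of the saposins that help degrade sphingolipids, had 3152 and 3331 CPM in mCherry+ wells, against 1570 and 1493 CPM in mCherry- wells (1.04 ± 0.16, adjusted p = 0.0119). These 3 calls were lost without the plate as a block (adjusted p = 0.0634 for TPP1, 0.0861 for NPC1 and 0.0651 for PSAP), by DESeq2 (adjusted p = 0.114, 0.264 and 0.15 in that order) and without the largest well of each sum (adjusted p = 0.137, 0.166 and 0.130). The last of these settings called 1 of 4671 genes tested. Of 14 alternatives, TPP1 was called in 7, NPC1 in 5 and PSAP in 8.

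The other lists gave fewer calls in macrophage-like wells. Of 4 uptake receptors tested, marco, a scavenger receptor gene that is also among the macrophage markers, had 2395 and 1988 CPM in mCherry+ wells, against 780.2 and 554 CPM in mCherry- wells, and was called at 1.69 ± 0.19 (SE, edgeR adjusted p = 0.0054). Of 10 sterol efflux, esterification and liver X receptor partner genes tested, RXRA had 186 and 221 CPM in mCherry+ wells, against 39.9 and 17.9 CPM in mCherry- wells, and was called at 2.79 ± 0.42 (adjusted p = 0.0109). It encodes the retinoid X receptor that pairs with liver X receptors, and its paralog could not be told from its symbol (ENSDARG00000057737). Without the largest well of each sum neither marco nor RXRA was called (adjusted p = 0.130 and 0.169), where 1 of the 4671 genes tested was called. None of 3 cholesterol synthesis genes tested was called by edgeR at an adjusted p of 0.528 or more, and none of the 2 other apolipoprotein genes, apoa1a and apoa2 (adjusted p of 0.157 or more).

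Over all kept wells the pathway calls were other ones, and these 4 genes were named after their values had been seen. apoa1a (4.92 ± 0.67, SE, edgeR adjusted p = 0.00397) and apoa2 (3.91 ± 0.52, adjusted p = 0.00373) were higher in mCherry+ wells, and plate 1 well 54 held 92.2% and 88.1% of their UMIs. ENSDARG00000037091, 1 of 2 genes listed as ASAH1, the acid ceramidase gene, had 17.1 and 7.17 CPM in mCherry+ wells, against 60.3 and 45.7 CPM in mCherry- wells, and fell by 2.26 ± 0.43 on the log2 scale (adjusted p = 0.0208). The other, ENSDARG00000034817, was not called, with 56.6 and 180.9 CPM of ASAH1 in mCherry+ wells, against 109 and 103.7 CPM in mCherry- wells (-0.11 ± 0.54, adjusted p = 0.95). MSMO1, a gene of cholesterol synthesis, had 8.0 and 1.54 CPM in mCherry+ wells, against 24.7 and 31.5 CPM in mCherry- wells, and fell by 2.72 ± 0.60 (adjusted p = 0.035).

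The genes most like npc2 across macrophage-like wells were sought among 3624 genes by Pearson correlation in log2(CPM + 50), centred within gate and plate. They were SLC40A1 (0.47), zgc:174904 (0.45), selenop (0.44), TPP1 (0.43) and UCP2 (0.42). The points are wells that share plate, library and depth, and the values are a description. Between npc2 and the other members the correlation ran from -0.02 to 0.15.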

How the data were processed

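Cells were sorted into 2 plates and sequenced by SORT-seq, and each plate was 1 replicate. The deposited tables hold expected counts, which the authors made from distinct UMIs of 6 bases corrected for collisions in a space of 4096, adding 5.36% over kept wells. The submitters' processing notes name GRCz11, BWA and Seurat, with versions not given in the sources used here. Spike-ins took 1.13% of UMIs and were left out of sums and tests. Symbols were matched for 17425 of 22342 genes, and abca1a was matched through a RefSeq synonym.

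Wells with at least 500 UMIs and 200 genes were kept (534) and clustered with scanpy 1.11.5 and leidenalg 0.10.2 (2000 variable genes, 30 principal components, 15 neighbors, resolution 1). A cluster took the name of the list with the largest share of markers raised, if at least 3 were raised. It took no name if another list had more genes among the 10 leading genes of the cluster. The same held if the cluster was shallow and none of the list's markers was among those 10. Of 158 marker names 126 matched, and of 116 pathway names 86. UMIs were summed per gate and plate, rounded to whole numbers and tested with edgeR 4.0.16 (quasi-likelihood F test, TMM scaling, filterByExpr, plate as a block, Benjamini-Hochberg over all genes tested, threshold 0.05) in R 4.3.3. Values for single plates used a prior count of 2. SE is the log2 fold change over the root of F. With 1 residual degree of freedom, the spread was shared across genes (8.30 prior degrees of freedom in macrophage-like wells), and in the test between classes, over 8 sums, it was wholly shared. The gates of a plate were paired because the labels place them on the same plate. Their deviations correlated at 0.16 over macrophage-like sums and 0.19 over all kept sums.

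Counts of each sum were simulated around 1 mean per gene, with no difference between plates and no wells that held much of a gene's UMIs. The fit was tested on these simulated data. For macrophage-like wells, over 5301 genes, it found 61 of 91 genes changed by 2 on the log2 scale and 4 of 91 changed by 1, with 0 false calls. For all kept wells, over 9904 genes, it found 23 of 89 and 0 of 97, with 0 false calls. Because of this setting, the counts of false calls do not bear on sums that rest on single wells or differ between plates.

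All members were named, and of each pathway list the 3 largest and 3 smallest log2 fold changes called in macrophage-like wells. The 5 genes most like the member richest in UMIs were also named. The members and lists were chosen with earlier results of these data known. Alternatives were another scaling, DESeq2 1.42.0, other filters and clusterings, thinning, and the loss of wells or classes.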

Additional observations from a re-analysis of the deposited data

Results flagged for a closer look

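The gate difference of apoeb was tested for a difference between classes, macrophage-like minus neutrophil-like, and the value was -4.33 on the log2 scale (edgeR adjusted p = 0.00519). For apoc1 it was -4.55 (adjusted p = 0.000178). In neutrophil-like wells both genes lay mostly in plate 1 mCherry+ well 54, and without it the values were 2.04 (adjusted p = 0.803) and -0.73 (adjusted p = 0.896).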

How the results depend on the processing

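Within macrophage-like wells, 212 genes and 2 members were called. The counts were 70 genes and 0 members with no replicate block for the plate that pairs the gates (847 genes and 4 members at an unadjusted p under 0.05), 85 and 1 by DESeq2, 322 and 4 with no filter on low counts, 491 and 4 in wells of at least 2000 UMIs, and 37 and 1 after thinning. They were 1 and 0 without the largest well of each sum (752 and 3 unadjusted). RLE scaling and distinct UMIs each called 1 member. Chosen after seeing the data, cluster 1 alone gave 28 genes and 0 members (170 and 1 unadjusted), cluster 3 alone 0 and 0 (93 and 2), and plate and cluster as blocks 0 and 0 (134 and 0). These counts are not out of the same total. The genes tested numbered 5301 as reported, 17379 with no filter (8 members) and 1610 after thinning (4 members). They numbered 4671 without the largest well of each sum, 2774 in cluster 1, 1292 in cluster 3 and 1416 with plate and cluster as blocks. The prior degrees of freedom were 8.30 as reported and 75.5 in wells of at least 2000 UMIs, and with no filter on low counts the spread was wholly shared across genes.

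Over all kept wells, 470 genes and 3 members were called, with apobb.1 tested only through its mCherry+ sums. The counts were 57 and 0 with no replicate block (1579 and 3 unadjusted), 1102 genes with no filter, 278 genes after thinning, 36 and 0 without muscle-like wells (1333 and 3 unadjusted), 890 genes without macrophage-like wells, and 849 without these wells and well 54. The genes tested numbered 9904 as reported, 22241 with no filter, 3090 after thinning and 9345 without muscle-like wells. They numbered 7911 without macrophage-like wells and 7903 without these wells and well 54. With no filter and after thinning the spread was wholly shared across genes. Without plate 1 well 54, 1 member was called. For the difference between classes, 2 members were called. In wells of at least 2000 UMIs 3 were called (apoeb, apoc1 and abca1a). The count was 1 with no filter, 1 without the largest well of each sum, where apoeb could not be tested, and 0 without well 54. Calls of abca1a here set macrophage-like wells against a neutrophil-like mCherry+ side near the floor.

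Signs changed for lipa (0.57) and abca1b (0.60) over all kept wells after thinning, for abca1b without macrophage-like wells (0.76, and 0.77 without well 54 as well), for the apoeb difference between classes without well 54 (2.04), and in cluster 3 for PSAP (-0.0074) and RXRA (-0.19). The cause was not tested. Of the other single-gene values, 256 were counted as the same, 53 lost and 16 gained a call, and 1 moved. Leaving out a plate left the log2 fold change of the other plate, with no test. Such values were counted as the same if nearer the fit than the standard deviation of the plate values, whatever their sign for genes not called. That rule could rarely count a value otherwise. Values of genes called in neither setting were also the same whatever their size, if the sign held. The 256 therefore does not measure how stable the values were. In macrophage-like wells, plate 1 alone had the opposite sign to the fit for apoeb, lipa and abca1b. Over all kept wells, so did plate 1 for npc2 and abca1a, and plate 2 for lipa and abca1b. Depth left abcg1 untested in both comparisons and apobb.1 untested in macrophage-like wells.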

Other observations

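Wells that took no name held 41.1% of the apoeb UMIs. An unnamed cluster of 20 wells was led by collagen genes (COL1A1, COL1A2 and COL5A1) and raised 7 of 10 epithelial and 4 of 12 fibroblast markers. It had 134 apoeb UMIs, found in 8 of its 18 mCherry+ wells and in 0 of its 2 mCherry- wells, and 78.7 of them lay in plate 1 well 79. The same mCherry+ wells had 7 apoc1 UMIs. A second unnamed cluster, of 63 wells with a median of 1701 UMIs, had 89.5 apoeb and 115 apoc1 UMIs in its mCherry+ wells, against 2 and 1 in its mCherry- wells. Of these, 62.5 apoeb and 86.9 apoc1 UMIs lay in plate 1 well 119. Without macrophage-like wells, a choice made after the data had been seen, the log2 fold change between the gates was 4.75 for apoeb (edgeR adjusted p = 0.00425) and 4.73 for apoc1 (adjusted p = 0.0031). Plate 1 well 54, with 241 apoc1 and 99.2 apoeb UMIs, is in these values. Without it as well they were 4.30 for apoeb (adjusted p = 0.00941) and 3.61 for apoc1 (adjusted p = 0.00768), and well 119 is still in them. The mCherry- side of these values was near the floor. There apoeb was found in 1 of 102 neutrophil-like, 1 of 23 progenitor-like and 1 of 26 unnamed wells. The gene apoc1 was found in 4 of the neutrophil-like, 1 of the unnamed and 1 of 5 muscle-like wells. The gates also differed in cell classes, with 70 mCherry+ and 26 mCherry- unnamed wells. Macrophage markers summed to 1937 and 7333 CPM on plates 1 and 2 in unnamed mCherry+ wells, and to 1262 and 5520 CPM in unnamed mCherry- wells. Neutrophil-like sums had 885 to 1561 CPM of these markers. The values without macrophage-like wells therefore do not describe wells free of macrophage RNA.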
